A study of Drosophila melanogaster with 24 samples.

Results

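LanA encodes an alpha chain of laminin, and its transcript FBtr0077014 was followed through metamorphosis of the Drosophila wing. It is 1 of the 15473 transcripts on the array and was chosen by its identifier. The flies were all w1118;+;+, an untreated stock that carries only a mutation of the white eye colour gene, and their wings were collected at 6 stages, wandering larvae of the third instar (L3) and 2, 6, 18, 24 and 36 h after puparium formation (APF), with 10 wings to a sample. There were 4 independent samples of each stage up to 24 h APF and 3 of 36 h APF. Another array carried RNA of the 36 h samples B and D together and is shown apart. Tissue that will form the notum, the back of the thorax, was still attached to the wing in L3 and at 2 and 6 h APF, while from 18 h APF on the wing was taken without it. Sex is not given in the sources used here.

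Laminins are secreted trimers of an alpha, a beta and a gamma chain, and they are the scaffold on which a basement membrane assembles at the basal face of an epithelium. In the fly LanA and wb encode the alpha chains, LanB1 the beta chain and LanB2 the gamma chain. Cells bind laminin through integrins, which in the wing also hold the dorsal and ventral epithelia together. The larval disc is wrapped in a basement membrane, which is remodelled by matrix metalloproteinases as the wing everts and elongates.

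The gene table of Release 6 places LanA on arm 3L and lists 1 RefSeq transcript for it, and 1 transcript of the array, measured with 5 probes, carried its name. The other 37 genes of a list of laminins, basement membrane components and integrins could not be matched to a transcript, since the files give identifiers without gene names and only 17 transcripts could be tied to a single gene. None of the 7 wing epithelium, 6 notum, 7 blood cell, 6 muscle precursor, 5 tracheal, 5 fat body and 3 nerve and glia markers could be matched either, so the labelled tissue could not be checked against markers. Stages were taken from the titles. A separate stage field of the labels gave another stage for 14 of the 24 arrays, among them 24 h APF E, for which it gave 36 h. Over all transcripts each of the 23 arrays of single samples correlated best with the mean of the other arrays of its titled stage. This shows that arrays of the same title group together, but not which stage a group is. The field named no stage besides L3, 24 h and 36 h. It gave 24 h for all of the 2 h arrays and for 24 h A, B and D alike. It gave 36 h for all of the 6 h arrays and for 36 h B, C and D alike, and L3 for the pooled 36 h RNA. The field thus joined titled groups that the correlations kept apart. Most transcripts over 2-fold from the other samples of their stage were in 24 h APF B, 1813, and 18 h APF C, 1774, against 4 to 1598 in the other arrays.

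LanA was brightest in L3, fell through 2 h and 6 h to its lowest level at 18 h APF, was higher again at 24 h APF and stood near its 18 h level at 36 h APF. Values are the normalized intensity of the transcript and its log2, on a linear scale that ran from 16.8 to 64238 over all arrays. In L3 the intensity was 7814, 8055, 8705 and 8141 in samples 1 to 4, a mean log2 value of 13.00 ± 0.07 (SD, n = 4). At 2 h APF it was 4621, 6215, 4929 and 5463 in samples B, C, D and E, with a mean of 12.36 ± 0.19 (SD, n = 4). Every 2 h array was below every L3 array. At 6 h APF samples A, B, D and E had 2231, 2314, 1801 and 2359, with a mean of 11.08 ± 0.18 (SD, n = 4). These arrays lay below all of the 2 h arrays, and D was the lowest of them.

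At 18 h APF samples A, B, C and D had intensities of 790.0, 798, 580 and 879, with a mean log2 value of 9.56 ± 0.26 (SD, n = 4). None of them overlapped the 6 h arrays, and C was the lowest of them. At 24 h APF samples A, B, D and E had 1662, 1067, 852 and 2746, with a mean of 10.48 ± 0.75 (SD, n = 4). The 24 h samples spanned a 3.22-fold range, from D within the range of the 18 h arrays to E above all of the 6 h arrays. At 36 h APF samples B, C and D had 644, 918 and 1146, with a mean of 9.78 ± 0.42 (SD, n = 3). These arrays overlapped those of 18 h and of 24 h APF. In geometric means LanA stood at 64.5% of its L3 level at 2 h, 26.5% at 6 h, 9.21% at 18 h, 17.5% at 24 h and 10.7% at 36 h APF.

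**Figure D1:**
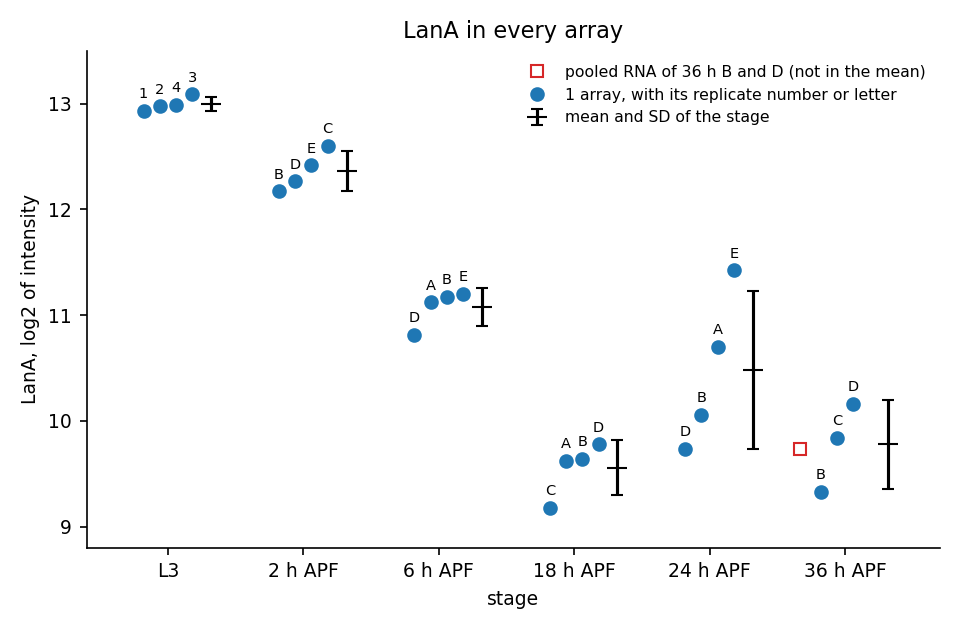
The plot gives the log2 intensity of LanA (vertical axis) in every array of the 6 stages (horizontal axis), with replicate numbers or letters, the mean and SD of each stage, and the pooled array as an open square. L3 arrays sit at 12.93 to 13.09 and 18 h arrays at 9.18 to 9.78, and the 24 h arrays spread from 9.74 to 11.42.

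The array of pooled RNA had an intensity of 851, a log2 value of 9.73. The mean of its 2 source samples, B at 644 and D at 1146, was 895, so that the pooled array lay 0.07 below it on the log2 scale. It was left out of the stage mean and of the tests.

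The place of LanA within each array restates these levels, since all arrays were brought to like distributions, and different probes need not be equally bright at equal amounts of RNA. In L3 84.6% to 86.0% of all transcripts of the array were dimmer than LanA, and at 2 h APF 75.2% to 80.1% were. The share was 60.5% to 64.5% at 6 h and 47.9% to 52.0% at 18 h APF, so that LanA then lay in the middle of the array. At 24 h APF it was 52.1% to 66.6% and at 36 h APF 49.2% to 56.4%. The files hold no detection call.

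Samples of LanA lay closest together in L3 and furthest apart at 24 h APF. Its SD of 0.07 in L3 was under the median SD of all transcripts there, 0.15, and at 2, 6 and 18 h APF both were between 0.18 and 0.26. At 24 h APF the SD of LanA was 0.75, against a median of 0.29, and 90.2% of all transcripts had a smaller one. Of 1327 transcripts whose 24 h mean was within 0.5 of that of LanA, 51 had a larger SD. Tests below use 1 spread per transcript over all stages, moderated by limma, 0.36 for LanA, which was above the SD of L3, 2, 6 and 18 h APF and below that of 24 and 36 h APF.

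**Figure D2:**
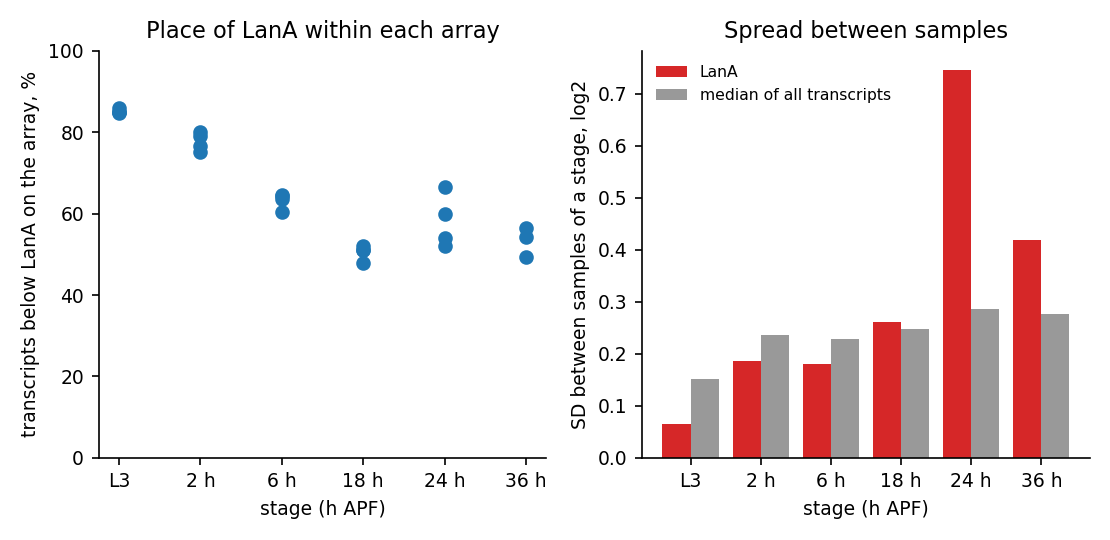
On the left, the percent of transcripts of the same array that were dimmer than LanA (vertical axis) is given for each array by stage, and on the right the SD of log2 values between samples of a stage for LanA (red) and the median SD of all transcripts (grey). LanA moved from 84.6% to 86.0% in L3 to 47.9% to 52.0% at 18 h APF, and its SD was largest at 24 h APF, 0.75.

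The stages differed for LanA in limma's F test over all 6 (F = 56.4, adjusted p = 4.7e-10), as they did for 74.9% of all transcripts. By F it ranked 1571 of 15473. Each step from a stage to the next was then tested with limma, with p-values adjusted by Benjamini-Hochberg over all 15473 transcripts, and its size was ranked among all transcripts. A step was called at an adjusted p under 0.05. As tissue was measured in bulk, fewer cells that express LanA and less LanA RNA per cell cannot be told apart.

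In the first step, from L3 to 2 h APF, LanA had a log2 change of -0.63 (standard error 0.26, 95% interval -1.17 to -0.10), a 1.55-fold lower level. The step was not called (adjusted p = 0.089 from limma), where 21.4% of all transcripts were called in either direction. The arrays did not overlap, and an exact two-sided permutation test on LanA alone gave p = 0.029, the smallest that 4 against 4 samples allow. In a fit of these 2 stages alone, whose SDs were both below the 0.36 over all stages, the adjusted p was 0.0030, and with slide as a block the change was -0.85 (adjusted p = 0.013). On the 2 slides that held an array of each stage the differences were -0.66 and -0.91. In size 9.42% of all transcripts fell further, which placed LanA at rank 1458 among falls.

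From 2 to 6 h APF LanA fell by 1.28 (standard error 0.26, 95% interval -1.82 to -0.75), 2.44-fold (adjusted p = 0.00042 from limma). Falls were called for 20.4% of all transcripts in this step. LanA ranked 847 among falls, with 5.47% of transcripts falling further. On the 3 slides with an array of each stage the differences were -0.998, -1.79 and -1.21. Per hour this was a change of -0.32 ± 0.06 (standard error), the fastest of the 4 steps after 2 h APF.

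From 6 to 18 h APF it fell by 1.52 (standard error 0.26, 95% interval -2.06 to -0.99), 2.87-fold (adjusted p = 5.2e-05 from limma), where falls were called for 17.9% of transcripts. LanA ranked 902 among falls, with 5.82% of transcripts falling further. Within slides the differences were -1.54, -1.50 and -1.04. With slide as a fixed block the change was -1.32 in this step and -1.37 from 2 to 6 h APF, so the order of these 2 steps by size turned. Per hour the change was -0.13 ± 0.02 (standard error). Notum was present in the 6 h samples and absent from the 18 h samples, so a change in the wing and the loss of notum cannot be told apart in this step. On the log2 scale, 18.4% of the whole fall from L3 to 18 h APF came in the first step, 37.3% from 2 to 6 h and 44.3% from 6 to 18 h APF. These are not shares of the level lost, since LanA stood at 64.5% of its L3 level at 2 h, 26.5% at 6 h and 9.21% at 18 h APF.

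From 18 to 24 h APF LanA rose by 0.92 (standard error 0.26, 95% interval 0.39 to 1.46), 1.90-fold (adjusted p = 0.020 from limma). Rises were called for 6.64% of all transcripts in this step, the step with the fewest calls. LanA ranked 513 among rises, with 3.31% of transcripts rising further, its highest rank in any step. On the 2 slides that held both stages the rise was 0.88, between 18 h C and 24 h B, and 1.07, between 18 h A and 24 h A. The arrays overlapped through 24 h APF D, and the exact two-sided permutation test gave p = 0.057. The call was lost in a fit of the 2 stages alone (adjusted p = 0.17) and without 18 h C, 24 h A or 24 h E (adjusted p = 0.060 to 0.063). Without 24 h E the rise was 0.61, and without both 18 h C and 24 h B it was 0.94 (adjusted p = 0.040).

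From 24 to 36 h APF the change was -0.70 (standard error 0.28, 95% interval -1.28 to -0.12), a 1.62-fold lower level with an adjusted p of 0.042 from limma. In this step 29.6% of all transcripts were called as falls, and 20.9% fell further than LanA, which ranked 3230. The arrays overlapped, and the exact two-sided permutation test gave p = 0.26. Within slides the differences were 0.11, -0.73 and -1.26, so that 1 of 3 slides went the other way. The call was lost under cyclic loess, where the change was -0.32 (adjusted p = 0.34), with arrays centred again on their medians (adjusted p = 0.070) and without 24 h A, 24 h E, 36 h B or 36 h C (adjusted p = 0.068 to 0.21). Without 24 h E the change was -0.39, without 36 h B it was -0.48, and without both 18 h C and 24 h B it was -0.84 (adjusted p = 0.017).

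**Figure D3:**
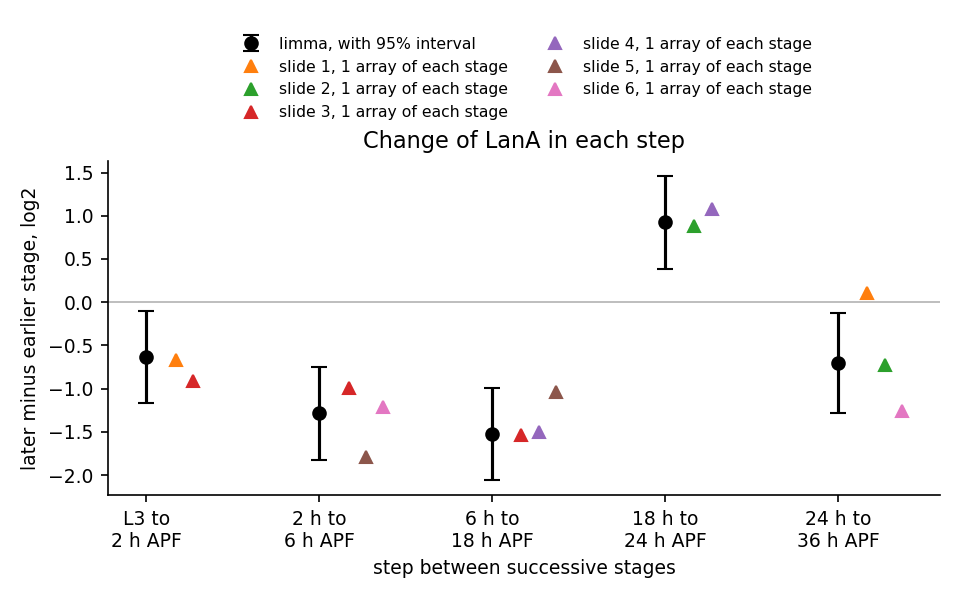
The plot gives the change of LanA on the log2 scale (vertical axis, later minus earlier stage) in each of the 5 steps (horizontal axis), as the limma estimate with its 95% interval and as the difference of 2 arrays on 1 slide for each slide that held both stages. All within-slide differences had the direction of the estimate except that of slide 1 from 24 to 36 h APF, 0.11.

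**Figure D4:**
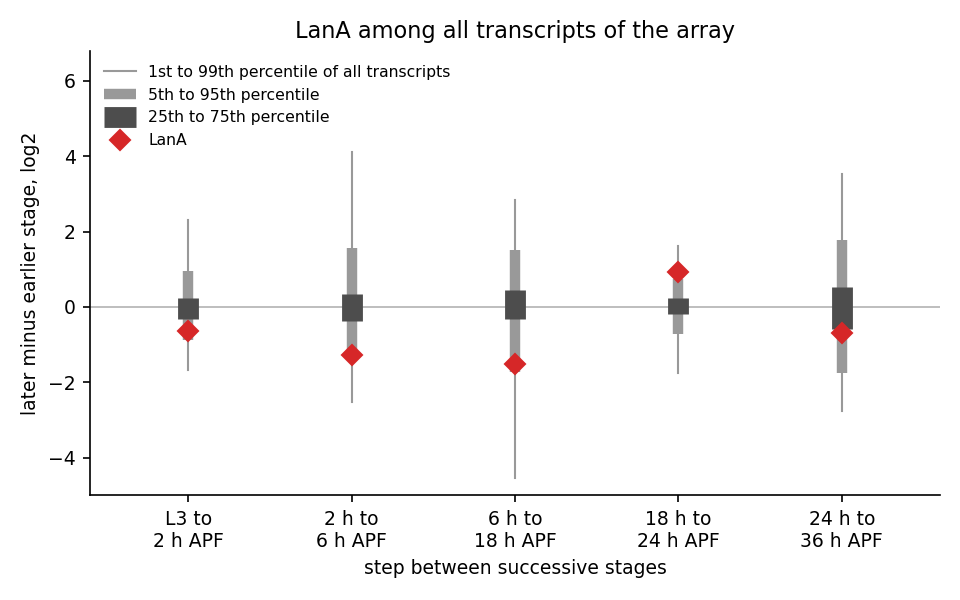
The bars give the spread of the log2 change of all 15473 transcripts (vertical axis) in each step (horizontal axis), from the 1st to the 99th percentile, and the diamonds LanA. LanA lay between the 5th and 25th percentile in the first step, from 2 to 6 h, from 6 to 18 h and from 24 to 36 h APF, and between the 95th and 99th from 18 to 24 h APF.

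Against L3 the falls added up. At 6 h APF the change was -1.92 (adjusted p = 2.6e-06), and 3.43% of all transcripts fell further. At 18 h APF LanA ranked 57 among falls (-3.44, adjusted p = 2.3e-09), with 0.362% of transcripts falling further. It ranked 238 at 24 h APF (-2.52, adjusted p = 1.0e-07) and 437 at 36 h APF (-3.22, adjusted p = 2.9e-09, all from limma). Falls were called for 24% of transcripts at 6 h, 14.3% at 18 h, 17.3% at 24 h and 30.8% at 36 h APF. These comparisons share the L3 samples, and from 18 h APF on they also hold the difference in notum. Rank 57 at 18 h APF compares with ranks of 1458, 847 and 902 in the 3 steps that led there.

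Ordered by mean level the stages were L3, 2 h, 6 h, 24 h, 36 h and 18 h APF. Of the 5 pairs of neighbours in this order, 2 h and 6 h APF were told apart by limma under every setting, and 24 h and 36 h APF under some. L3 and 2 h APF missed the threshold, as given above. The level at 24 h APF was 0.60 below that at 6 h (95% interval -1.14 to -0.06), which was not called (adjusted p = 0.073 from limma, with 38.6% of transcripts called in either direction). Under cyclic loess it was -0.68 and called (adjusted p = 0.035), and without 24 h E it was -0.91 (adjusted p = 0.0015). Notum was present at 6 h and absent at 24 h APF, so its loss and a change in the wing cannot be told apart here. The level at 36 h APF was 0.22 above that at 18 h (95% interval -0.36 to 0.80, adjusted p = 0.53), where 51.9% of transcripts were called in either direction. Over all 15 pairs of stages LanA passed the test in 12. Most of these 12 set L3, 2 h or 6 h APF against 18, 24 or 36 h APF and so also hold the difference in notum.

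The sequence of falls from 2 to 6 h and 6 to 18 h APF and a rise from 18 to 24 h APF was called for 30 transcripts, 0.194% of the array. Each step by itself was called in that direction for 20.4%, 17.9% and 6.64% of all transcripts. With all 5 calls of LanA, including none in the first step and a fall in the last, there was 1 other transcript, FBtr0075604, which was singled out after its values were seen. Its mean log2 values were 10.81 in L3, 11.16 at 2 h, 9.59 at 6 h, 7.39 at 18 h, 8.27 at 24 h and 6.48 at 36 h APF. Both counts were made in the main fit alone and rest on its threshold. Apart from fits with 1 array left out, LanA changed side in 5 of 13 alternatives for the first step. It did so in 3 of 15 from 18 to 24 h and in 7 of 15 from 24 to 36 h APF.

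Likeness to LanA was measured as the Pearson correlation of log2 values over the 23 arrays of independent samples. This is a description across arrays that share the 6 stages and 6 slides, and only those up to 6 h APF hold notum. How far likeness reflects that difference was not tested. Over 0.9 were 21 of the 15472 other transcripts, and 14 were under -0.9. The highest were FBtr0070866, with r = 0.949, and FBtr0070265, with r = 0.949, for which the files give no gene name. FBtr0070866 went from 10.00 in L3 to 10.14 at 2 h, 7.72 at 6 h, 6.25 at 18 h, 6.86 at 24 h and 6.34 at 36 h APF. It did not share the lower level of LanA at 2 h, and it was lowest at 18 h and higher at 24 h APF, as LanA was. FBtr0070265 went further down, from 10.42 in L3 to 5.03 at 18 h, 5.19 at 24 h and 4.65 at 36 h APF. Of the 50 transcripts most like LanA by this measure, 40 were also among the 50 with slide means removed, 43 without 18 h C and 24 h B, 20 by the 6 stage means and 17 by the distance between log2 changes from L3.

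Among the 16 other named genes the profile of fend, which acts in axon guidance, was the most like LanA (r = 0.861, rank 51). It went from 9.72 in L3 to 8.57 at 6 h, 8.49 at 18 h and 8.51 at 24 h APF, with no rise of the size LanA had from 18 to 24 h. Next came NaPi-III, a sodium-dependent phosphate cotransporter, with r = 0.749 and a level that was lower at 24 h, 8.52, than at 18 h APF, 10.06. The least alike was alpha-Spec, which encodes the alpha subunit of spectrin, with r = -0.495.

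**Figure D5:**
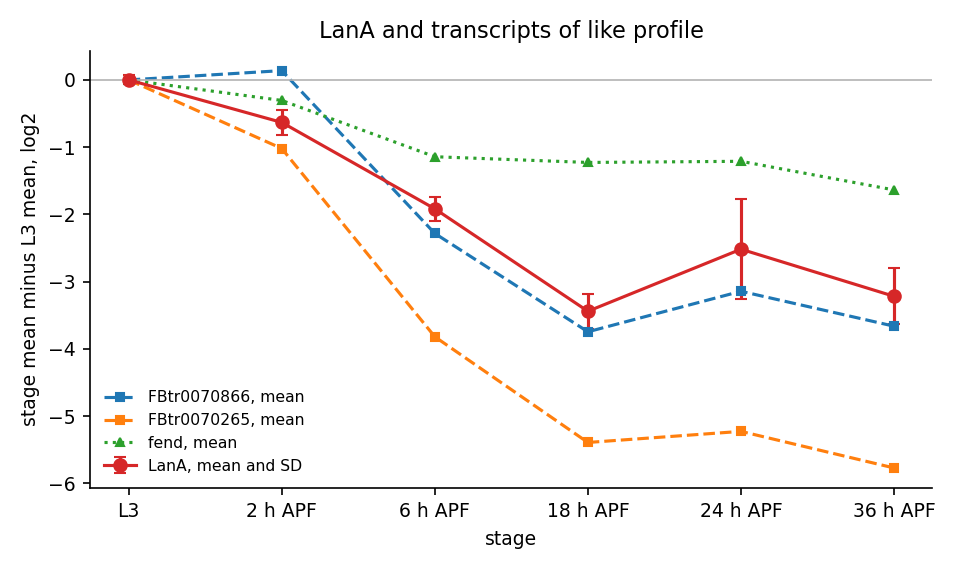
Lines give the stage mean minus the L3 mean on the log2 scale (vertical axis) by stage (horizontal axis) for LanA with the SD of each stage, for the 2 transcripts of highest correlation with it and for fend. LanA reached -3.44 at 18 h and -2.52 at 24 h APF.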

How the data were processed

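After linear amplification the RNA was labelled with Cy3, 1 sample to an array, on 6 NimbleGen slides of 4 arrays. The authors scanned and quantile normalized all arrays together with NimbleScan and made 1 intensity per transcript with RMA from 3 to 5 probes (RMA is also in the submitters' processing notes). Their versions and the annotation release are not stated in the sources read. Quantile normalization hides changes in total RNA.

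The deposited intensities of single samples were put on the log2 scale. A deposited log2 table of the whole series, in which the L3 columns hold each other's values, served as an alternative. Array medians were 9.28 to 9.58, and precision is limited by how many arrays there were. Slides were read from file names, 1 of them incomplete and placed by the free position.

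Log2 values of 23 arrays were fitted with limma 3.58.1 in R 4.3.3, with 1 mean per stage, and checked on simulated data. The paper's methods name an analysis of variance at the same threshold. Ranks count transcripts with a larger fitted change of the same sign. Exact permutation tests used the difference of means. Besides LanA, the rule named the most highly correlated transcripts, at most 2 of them unnamed and falling, and list members that could be matched. The gene, lists and rules were chosen with earlier results of these data known. Figures were drawn with matplotlib 3.10.9.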

Additional observations from a re-analysis of the deposited data

How the results depend on the processing

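All 244 values of the 11 comparisons kept their direction under the alternatives tried, and 219 kept their side of the threshold. Changing the test or the moderation, fitting 2 stages alone or leaving out dim transcripts cannot alter the fitted change, so there the direction was fixed. The log2 table of the whole series also gave the same changes. The steps from 2 to 6 h (-1.37 to -1.13) and 6 to 18 h APF (-1.61 to -1.32) and the 4 comparisons of 6 h and later stages with L3 stayed called throughout. The difference of 36 h from 18 h APF stayed uncalled throughout. The step from L3 to 2 h APF was called with slide as a fixed block (-0.85), in the 2-stage fit, with dim transcripts left out (adjusted p = 0.0496, both -0.63) and with array weights, added after the data were seen (-0.67). The exact permutation tests were not adjusted over transcripts, and their p was set against 0.05 as it stood, which for this step (-0.63) was 0.029. The rise from 18 to 24 h APF lost its call with a replicate block (0.80, adjusted p = 0.12) and in the 2-stage fit (0.92, adjusted p = 0.17). It had an unadjusted exact permutation p of 0.057, and was 0.61 to 1.17 with 1 array left out. The step from 24 to 36 h APF lost it with position on the slide (-0.63), the replicate block (-0.51), centred medians (-0.61), cyclic loess (-0.32) and, at -0.70, in the 2-stage fit and without moderation (adjusted p = 0.054). It had an unadjusted exact permutation p of 0.26, and was -0.95 to -0.39 with 1 array left out. The cause of these changes was not tested. The difference of 24 h from 6 h APF was called with dim transcripts left out (-0.60) and under cyclic loess (-0.68), and was -0.91 to -0.35 with 1 array left out. The percent of transcripts falling further from L3 to 18 h APF stayed between 0.274 and 0.388.

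Replicate letters are shared by the stages after L3. Between successive stages the deviations of samples of 1 letter had correlations across transcripts from -0.554 to 0.292. Only for letter A from 6 to 18 h APF, at 0.292 and on a shared slide, was the own letter the most highly correlated. The block was therefore not taken as a pairing. Pairing by letter was not possible for L3 because its samples carry numbers in place of letters.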
